A study of Schmidtea mediterranea with 9 samples.

Results

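In sexual planarians, 186 of the 36036 transcripts measured stood in the order ovary, non-gonadal tissue, testis, with at least a 2-fold step on either side of the non-gonadal level. These members were chosen from the mean of the 3 deposited CPM values of each tissue. CPM is a read count scaled to the size of its library, here also adjusted by the authors for library composition. A member had a non-gonadal mean of at least 1 CPM, a non-gonadal mean at least 2 times the ovary mean, and a testis mean at least 2 times but under 32 times the non-gonadal mean. The rule also set 1 transcript aside, and its limit of 300 members was not reached. The directions of both steps are therefore how the members were found, and counts of tests on those steps are given below as description alone.

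RNA was sequenced from ovaries, testes and surrounding non-gonadal tissue of wild-type *Schmidtea mediterranea* of the sexual strain, with 3 libraries per tissue. The tissues were cut from 16 µm stained sections by laser-capture microdissection (LCM), in which a laser frees chosen areas of a section so that RNA can be taken from them alone. Each ovary library pooled 14 worms, and each testis or non-gonadal library pooled 6. Worms were untreated in every group, worm age is not stated in the sources used here, and they do not say whether a worm served for more than 1 library, so SDs measure the spread between these pools of captures. Library totals lay between 18611584 and 25730833 counts. The labelled tissues held their defining transcripts: the testis transcript *sped-1* averaged 10391 CPM in testis against 23.4 in non-gonadal tissue, and the ovarian transcript *lecg* averaged 1548 CPM in ovary against 11.9.

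The sexual planarian is a hermaphrodite that carries ovaries ventrally beneath the brain and many testis lobes along the dorsolateral body. A testis lobe is a layered epithelium in which spermatogonia divide, spermatocytes undergo meiosis, and round spermatids elongate and build a flagellum. The ovary holds oogonia and oocytes together with somatic support cells. The non-gonadal captures hold what surrounds the gonads, a mixture that in planarians includes muscle, gut, nerve, epidermis, secretory cells and stem cells. By the limits of the rule, each member was also counted in the non-gonadal captures, at a mean of at least 1 CPM. Whether that level is the body's own expression was not tested. In captures of whole tissue, fewer cells of a type and less RNA per cell cannot be told apart.

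None of the 186 members is paired with a gene name in the files, the text or the tables at hand, so they are given by transcript identifier and no function is ascribed to them. The 11 transcripts taken as markers of testis, early germ cells and ovary and the 11 of the monoamine pathway (synthesis, transport and reception of serotonin and related amines; *aadc* is on both lists) include 0 members.

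As a group the members took 1.14%, 1.17% and 1.08% of the counts in the 3 testis libraries, a mean of 1.13% ± 0.0431 (SD, n = 3). In non-gonadal tissue they took 0.303%, 0.294% and 0.288%, a mean of 0.295% ± 0.0076 (SD, n = 3). In ovary they took 0.132%, 0.121% and 0.124%, a mean of 0.126% ± 0.00593 (SD, n = 3). The 3 groups of libraries did not overlap in this share, which uses no scaling beyond the library total. The order of the 3 tissues in it follows from the choice of members.

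The typical member was of modest abundance outside the testis. Measured as TPM, a level per length that can be compared between transcripts, the median member stood at 5.35 in non-gonadal tissue (0.301 to 299 over the members). It was 2.84 in ovary (0.0974 to 123) and 22.9 in testis (1.07 to 589). On the CPM scale of the rule the medians were 2.45 for ovary, 6.999 for non-gonadal tissue and 49.3 for testis. The ovary thus held a median of 34.2% of the non-gonadal level (5.13% to 49.9%), and the testis a median of 5.09 times that level (2.01 to 30.3). Between the gonads the median difference was 16.9-fold (4.41 to 220).

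**Figure D1:**
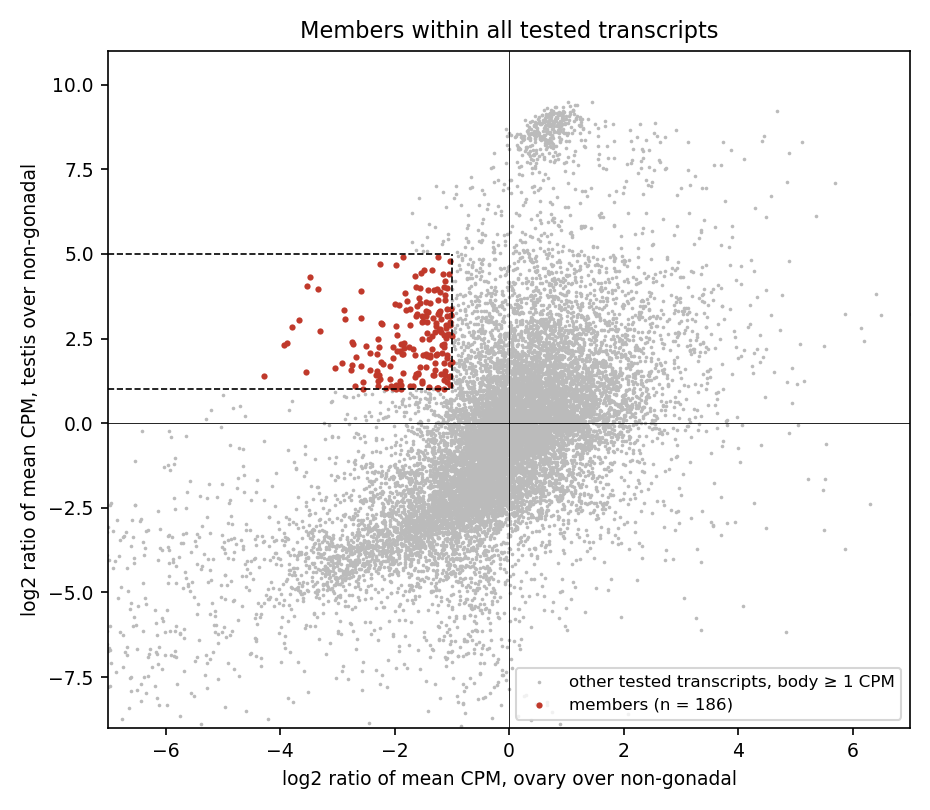
Each point is a transcript with at least 1 CPM in non-gonadal tissue that passed the filter on low values, placed by the log2 ratio of mean CPM in ovary over non-gonadal tissue (horizontal) and in testis over non-gonadal tissue (vertical); transcripts beyond the axes are not shown. The 186 members (red) fill the box that the rule draws (dashed), most of them near its right edge, since 136 are 2 to 4 times lower in ovary.

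The members crowded near the ovary limit of the rule and were spread along the testis step. For 136 members, 73.1%, non-gonadal tissue was 2 to 4 times ovary, for 39 it was 4 to 8 times, and for 11 more than 8 times. In testis, 69 members (37.1%) were 2 to 4 times the non-gonadal level, 57 were 4 to 8 times, 44 were 8 to 16 times and 16 were 16 times or more. The level in the body was much the same over these classes, so that members with the larger testis step were also the more abundant in testis. Median testis TPM was 10.1, 20.0, 63.0 and 74.5 over these 4 classes, and median non-gonadal TPM was 6.12, 4.64, 6.50 and 4.35. The share of the non-gonadal level left in ovary also varied little over them, with medians of 30.2%, 34.9%, 36.7% and 35.1%. A body to ovary ratio over 8 and a testis step of 16 or more were both found in 2 members.

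The same order could be read in single libraries for most members, which in part restates their choice on the means of these libraries. In TPM, which carries no composition factor, every ovary library lay under every non-gonadal library for 170 members (19.0% of all tested) and every testis library lay over every non-gonadal library for 180 (36.7%). The full order held without overlap for 166 of the 186, where 1.41% of all 18416 transcripts tested showed it. In deposited CPM the ovary side held for 182 members (36.4% of all tested), the testis side for 185 (43.1%) and the full order for 181 (5.22%). The exceptions in CPM were SMED30007075, SMED30031722, SMED30027860 and SMED30035103 for ovary and SMED30009463 for testis.

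**Figure D2:**
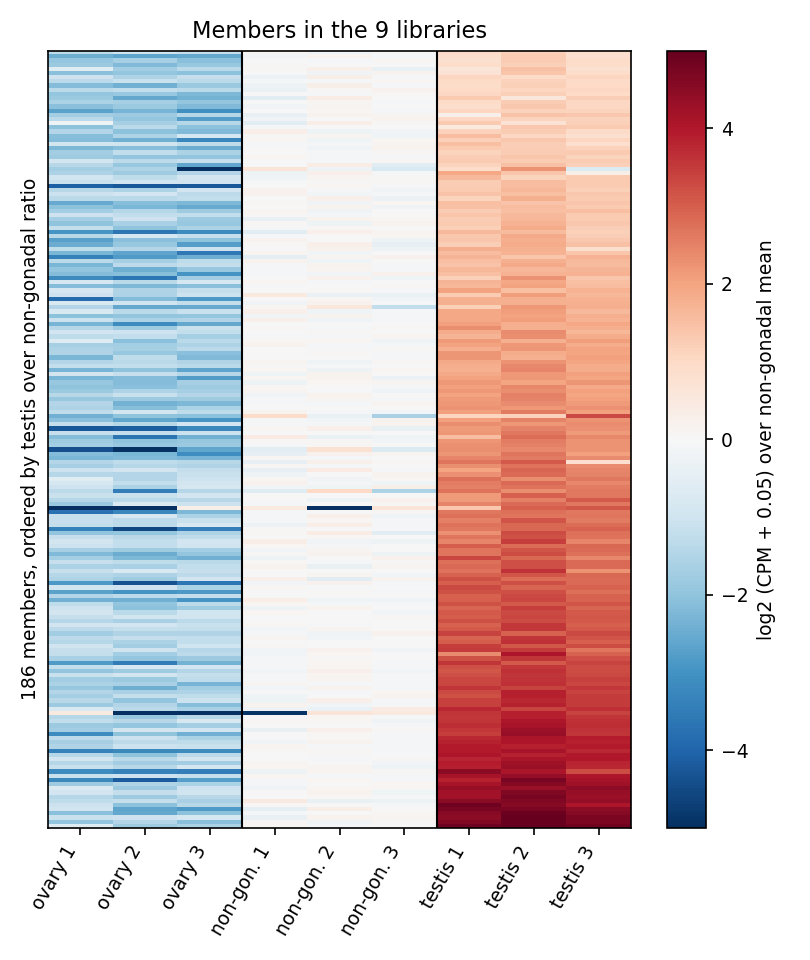
Colour gives the log2 of each library's CPM over the member's non-gonadal mean, with 0.05 CPM added to both, for 186 members (rows, from the smallest testis step at the top to the largest at the bottom) in 9 libraries (columns). The ovary columns are blue and the testis columns red almost throughout. Members with 0 or a few counts in some libraries of a tissue, such as SMED30007075 and SMED30031722, give dark cells in those ovary or non-gonadal columns.

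The members were also read in a model of all transcripts. The edgeR quasi-likelihood test on counts called a transcript where it differed by 2-fold or more with a p of 0.01 or less after Benjamini-Hochberg adjustment. In ovary against non-gonadal tissue 178 of the 186 members were called lower, where 18.8% of all transcripts tested were, and in testis 178 were called higher, where 33.4% were. Both calls were made for 173 members, against 1.17% of all tested, and all 186 were called higher in testis than in ovary, against 30.4%. All 186 passed the filter on low values. Without composition scaling, on library size alone, 105 members were called lower in ovary, 135 higher in testis and 75 in both. The share of all tested transcripts called was not counted under that setting, so these counts have no background beside them. The rule used both comparisons with non-gonadal tissue, and these share the 3 non-gonadal libraries, so the counts restate the choice of members. The median log2 difference over the members was -1.57 for ovary over non-gonadal tissue (0.02 over all tested) and 2.32 for testis over non-gonadal tissue (-0.10 over all tested).

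The most abundant members differed in which step carried the difference. SMED30034887 had the highest CPM of any member in both testis and non-gonadal tissue. Its TPM was 155, 116 and 97.7 in ovary, 381, 251 and 266 in the non-gonadal captures, and 520, 494 and 428 in testis. The 3 tissues did not overlap, and the testis step was the smaller of its 2 steps. Its log2 difference was -1.91 ± 0.214 (SE) for ovary and 1.11 ± 0.208 for testis, each over non-gonadal tissue.

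SMED30010515 and SMED30014613 had the next highest non-gonadal CPM and likewise rose little in testis. SMED30010515 stood at 46.4, 60.8 and 45.1 TPM in ovary, 127, 151 and 136 in non-gonadal captures and 196, 240 and 208 in testis. SMED30014613 stood at 42.6, 54.4 and 42.9 TPM in ovary, 70.0, 70.1 and 76.8 in non-gonadal captures and 113, 110 and 103 in testis. In both, libraries of one tissue kept clear of those of the next. The log2 differences of SMED30014613 were -1.27 ± 0.11 (SE) in ovary and 1.02 ± 0.109 in testis, so that neither step was much above 2-fold.

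The other abundant members owed their place to the testis. SMED30004855 had the highest testis TPM of the group, 659, 504 and 604, against 50.9, 52.6 and 49.2 in non-gonadal tissue and 27.5, 20.3 and 31.1 in ovary. SMED30012229 stood at 348, 436 and 348 TPM in testis, 24.4, 25.04 and 23.1 in non-gonadal captures and 13.0, 11.03 and 14.0 in ovary. SMED30008425 stood at 190, 243 and 184 TPM in testis, 33.7, 29.1 and 30.9 in non-gonadal captures and 23.5, 25.9 and 21.8 in ovary. In all 3 the testis step was larger than the ovary step. The log2 difference of testis over non-gonadal tissue was 3.96 ± 0.184 (SE) for SMED30004855, 4.40 ± 0.167 for SMED30012229 and 3.15 ± 0.147 for SMED30008425. That of SMED30008425 in ovary was -1.03 ± 0.14, at the limit of the rule.

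**Figure D3:**
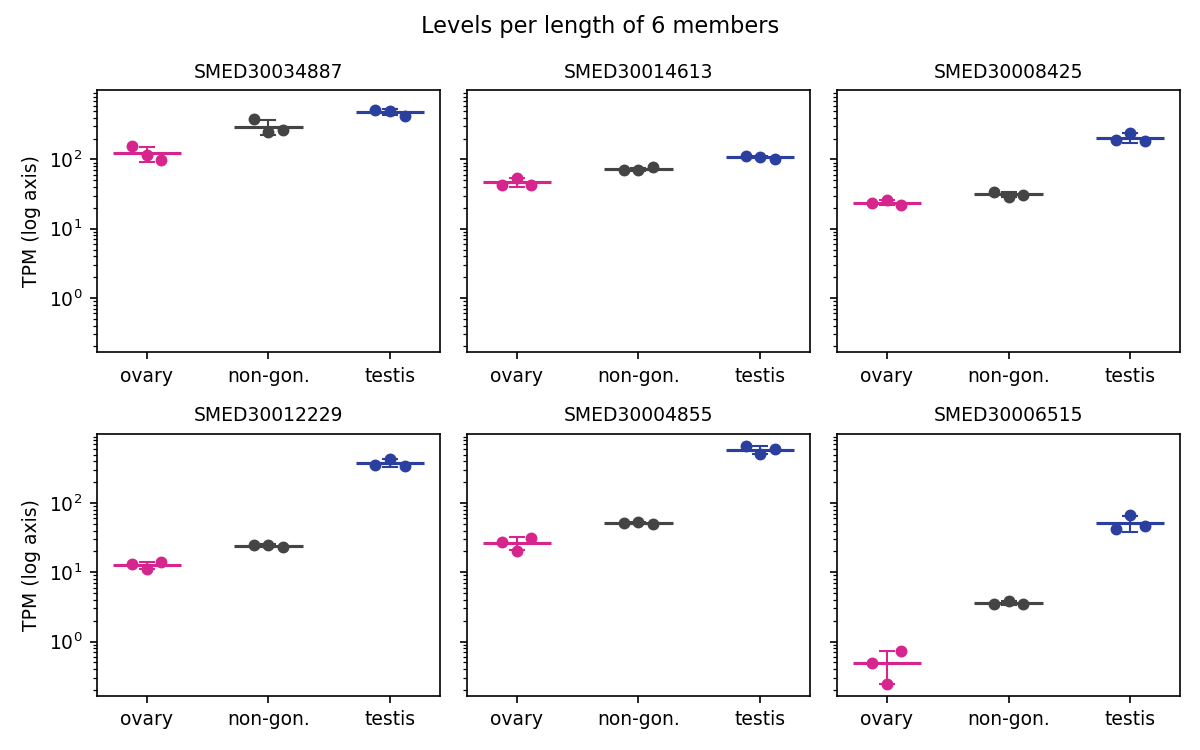
TPM on a log axis in the libraries of ovary, non-gonadal tissue and testis (points) with the mean and SD of 3 libraries (lines and bars) for 6 members. SMED30014613 climbs by small steps on both sides, SMED30034887 takes its larger step between ovary and non-gonadal tissue, SMED30008425, SMED30012229 and SMED30004855 jump in testis, and SMED30006515 takes a large step on both sides.

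The largest gaps between the gonads came from members that were nearly lost in ovary. SMED30006515 had counts of 9, 5 and 13 in ovary, 64, 82 and 67 in non-gonadal tissue and 839, 1483 and 1040 in testis, and its testis CPM was 220 times its ovary CPM. SMED30019327 had 9, 9 and 7 counts in ovary, 52, 79 and 68 in non-gonadal tissue and 1217, 879 and 539 in testis, a ratio of 193 between the gonads. SMED30010853 had 18, 25 and 22 counts in ovary, 144, 168 and 136 in non-gonadal tissue and 1874, 2035 and 1717 in testis, a ratio of 158. None of the 3 overlapped between tissues. Their log2 differences in ovary were -3.52 ± 0.355 (SE), -3.53 ± 0.463 and -3.35 ± 0.16 in this order, beside a median of -1.57 over the members.

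The 11 members with a body to ovary ratio above 8 were a low set in ovary. Their ovary TPM ran from 0.145 to 1.01 and their non-gonadal TPM from 1.04 to 9.23, with a median length of 1373 bases. SMED30035131, picked after its values were seen, had the lowest share, 5.13% of the non-gonadal level. Its counts were 19, 21 and 17 in ovary, 241, 291 and 229 in non-gonadal tissue and 495, 574 and 533 in testis. The libraries of each tissue lay close together, and its testis step was a modest 2.63-fold.

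At the other end, 2 members differed least between the gonads. SMED30006117 stood at 9.36, 12.5 and 10.5 TPM in ovary, 16.6, 13.7 and 16.1 in non-gonadal captures and 23.1, 23.8 and 21.1 in testis. It was just inside the testis limit, and its log2 difference in testis of 0.99 ± 0.109 (SE) left it under the 2-fold of a call. SMED30035103 had 27, 11 and 11 counts in ovary, 15, 32 and 24 in non-gonadal tissue and 47, 30 and 46 in testis. Its ovary and non-gonadal libraries overlapped in TPM, as did its testis and non-gonadal libraries, and it was called in neither comparison with non-gonadal tissue. Without ovary library 1, the highest of the 3, its log2 difference in ovary was -1.70 and it was called. Without ovary library 2 that difference was -0.77 and without ovary library 3 it was -0.89, and neither was called.

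Few counts limited the ovary level of the rarest members. Summed over the 3 ovary libraries, members had 14 to 5361 counts, 134 had at least 100 and 13 had under 30. SMED30031630 had 14 (exact Poisson 95% interval 7.65 to 23.5, counting error only), SMED30028012 had 15 (8.40 to 24.7) and SMED30023737 had 18 (10.7 to 28.4). These intervals are wide beside the 2-fold step to non-gonadal tissue that the rule asks for. The body to ovary ratios of these 3 members were well above that step, at 9.88, 11.6 and 6.70 in this order. In non-gonadal tissue SMED30031630 had 29, 34 and 33 counts and in testis 163, 171 and 174, both tightly grouped.

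Where the rule drew its limits, members and non-members were hardly apart. The member just inside the floor, SMED30019169, had 1.00 CPM in non-gonadal tissue, and SMED30018333 just outside had 0.98. At the ovary limit SMED30035924 had a body to ovary ratio of 2.005, and SMED30035939 just outside had 1.999. At the lower testis limit SMED30006117 had a testis step of 2.014, and SMED30033509 just outside had 1.994. At the upper testis limit SMED30031418 had a step of 30.3, and SMED30031490 just outside had 33.9. In all, 48 members lay within 2.2-fold on 1 of the lower limits, 62 transcripts missed the ovary limit alone with ratios of 1.8 to 2, 17 missed the lower testis limit alone in the same range, and 17 met all but the upper testis limit.

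Transcript length was not used by the rule. The members had a median of 1357 bases (171 to 12245) beside 1360 over all transcripts tested. They were shorter at the median than 284 transcripts of the opposite pattern (higher in ovary and lower in testis than non-gonadal tissue, 1743.5 bases) and 300 that rose from non-gonadal tissue through ovary to testis (1677 bases). A further 300 that were low in ovary with testis near the non-gonadal level had 1382 bases. These are descriptions of lists, without a test.

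The libraries of a tissue varied most in ovary for the members. The median coefficient of variation over 3 libraries, on deposited CPM, was 10.5% in non-gonadal tissue, 15.2% in testis and 17.0% in ovary for the members, beside 10.4%, 14.2% and 13.1% for all tested. The list low in ovary with testis near the non-gonadal level had the same ranking, at 9.08% in non-gonadal tissue, 13.9% in testis and 14.9% in ovary. In the list of opposite pattern it was 10.98% in ovary and 19.4% in testis. In the list that rose from non-gonadal tissue through ovary to testis it was 9.98% in non-gonadal tissue, 10.1% in ovary and 13.0% in testis. The part of expression level in these spreads was not tested. Part of the spread in testis came with the deposited scaling of 1 library. The composition factor was 0.632 for testis library 2, against 0.756 and 0.722 for testis libraries 1 and 3. In deposited CPM testis library 2 was 1.21 times the mean of the other 2 at the median member. On library totals it was 1.04 times, and the median coefficient of variation in testis was 10.7%.

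A few members were present in some libraries of a tissue and missing in others. They were picked after their values were seen. SMED30007075 had 117, 0 and 0 counts in ovary and 1, 106 and 86 in non-gonadal tissue, while testis held 598, 728 and 550. SMED30031722 had 0, 0 and 56 counts in ovary, 44, 0 and 52 in non-gonadal tissue and 69, 208 and 246 in testis. For SMED30007075 the ovary mean rests on library 1 alone, so that the word low describes 2 of its 3 ovary libraries. SMED30014784 owed its testis step to library 3, with 67, 68 and 333 counts in testis beside 70, 34 and 12 in non-gonadal tissue and 9, 15 and 12 in ovary. SMED30009463 ranged from 28 to 205 counts in testis and from 31 to 81 in non-gonadal tissue, with 0 counts in ovary library 3. All 4 were among the 8 members not called in ovary.

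Transcripts that mark the testis were also counted in the other captures, where RNA carried over from testis and a tissue's own expression cannot be told apart. The 7 testis markers, none at 0 in any library, summed to 75.1, 42.2 and 41.2 CPM in non-gonadal tissue, 140, 88.4 and 131 CPM in ovary and 18020, 21217 and 17529 CPM in testis. Non-gonadal library 1 was thus the highest of its 3. The markers did not all behave alike: *eIF3c* and *nf-yb* averaged 18.6 and 25.9 CPM in ovary against 2.31 and 4.96 CPM in non-gonadal tissue, a wider gap than that of *sped-1*, 39.4 against 23.4 CPM. The 100 transcripts most abundant in testis by TPM are not all particular to it, since 73 were over 32 times their non-gonadal level and others were shared with the body or higher there. They stood at a median of 0.238% of their testis level in non-gonadal tissue and 0.412% in ovary, and in non-gonadal library 1 the 100 were 1.84 times the mean of the other 2 at the median. For the members that ratio was 0.99, and 6 of 186 were over 1.5, beside 60 of the 100. The rule itself holds the non-gonadal level of a member within a fixed range of its testis level, so that range says nothing on testis RNA. The lowest ovary level of a member relative to testis was that of SMED30006515, at 0.455%. The part of testis RNA in the ovary or non-gonadal level of the members was not tested.

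RNA of the surrounding body in the ovary captures bears on how low an ovary level could be read. For 259 transcripts non-gonadal tissue held at least 10 CPM and over 32 times the testis level. They stood in ovary at a median of 12.2% of the non-gonadal level, with quartiles of 1.43% and 58.1%. The highest stood at 420%, so the list also holds transcripts that were higher in ovary. The members stood at a median of 34.2%, with quartiles of 24.5% and 42.9%, and the rule itself caps this share for them. The part of body RNA in the ovary level of the members was not tested.

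**Figure D4:**
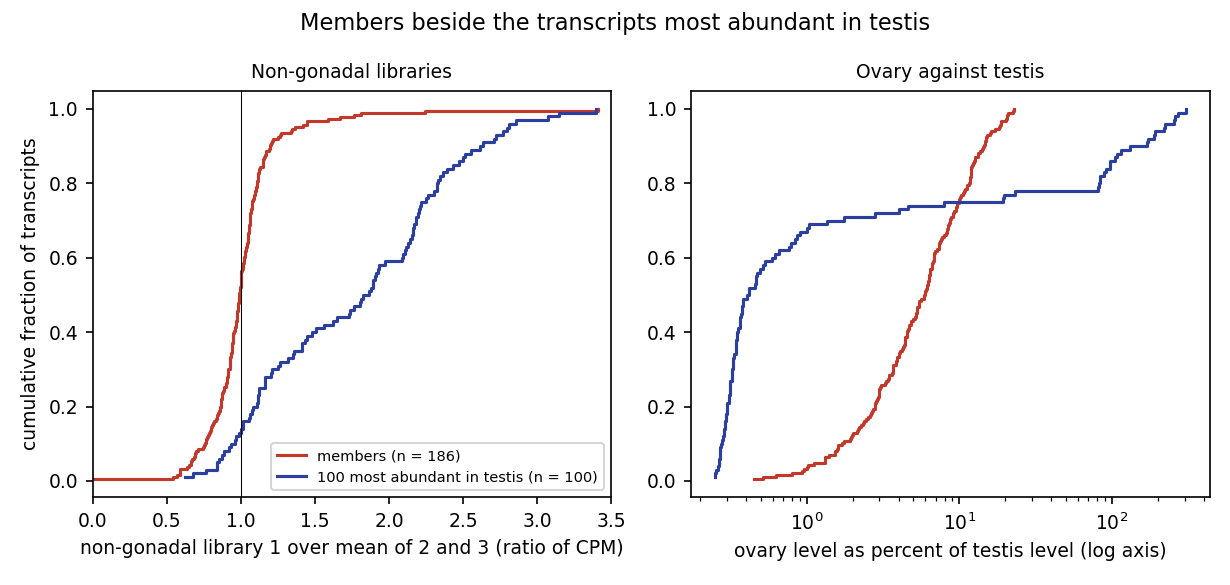
Cumulative fraction of the 186 members (red) and of the 100 transcripts most abundant in testis (blue) by non-gonadal library 1 over the mean of libraries 2 and 3 (left, ratio of CPM) and by the ovary level as a percent of the testis level (right, log axis). At the left the members centre on a ratio of 0.99 and the 100 transcripts, of which 73 are over 32 times their non-gonadal level, on 1.84. At the right the medians are 5.91% and 0.412%, and the rule bears on the values of the members there.

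How many transcripts met the 2-fold limits turned on the scaling. The composition factor deposited with the CPM raised testis values and lowered ovary values. On library totals alone 79 of the 186 members met the rule, among 86 transcripts in all. On TPM 59 did, among 69. The step to ovary was the more exposed, since 112 members kept a body to ovary ratio of at least 2 on library totals and 137 kept a testis step of at least 2. All 186 kept the order of the 3 means on library totals and in TPM. On library totals the rule fixed this in advance, since the composition factor changed each step by less than 2-fold. TPM comes from the same counts. The shift is one of all transcripts. The edgeR model has a composition scaling of its own, separate from the deposited factor. Without it, on library size alone, the median log2 difference over all tested was 0.44 for ovary and -0.65 for testis over non-gonadal tissue. That of the members was -1.15 and 1.76.

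The 79 members that met the rule on both scales, 42.5% of the 186, were the steeper ones. This follows from their choice. Without the composition factor both steps were smaller, so the rule on library totals asked for larger steps in deposited CPM. The medians and counts that follow are description alone. Their median body to ovary ratio in deposited CPM was 3.72, their median testis step 7.35 and their median gonad difference 27.4-fold, at a median TPM of 32.6 in testis, 6.63 in non-gonadal tissue and 2.41 in ovary. They held 9 of the 11 members with a body to ovary ratio above 8 and 9 of the 16 with a testis step of 16 or more. At 3-fold in both steps 58 members remained, with a median gonad difference of 28.9-fold.

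**Figure D5:**
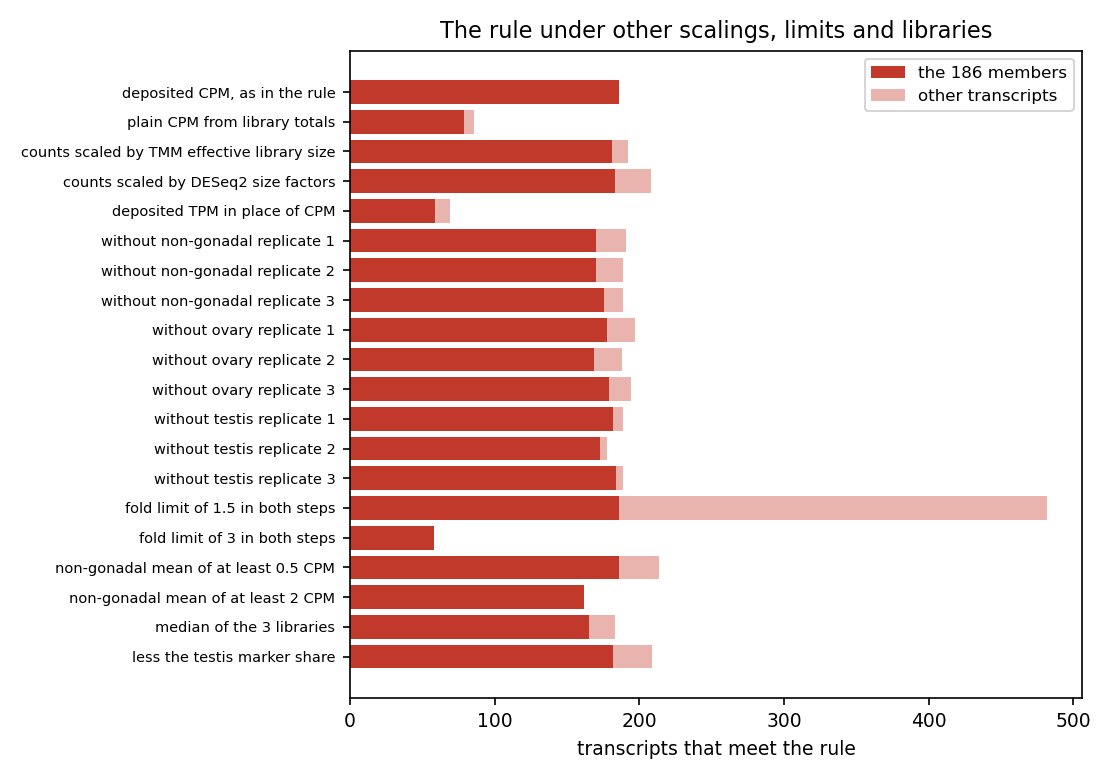
Bars start at 0 and give the number of transcripts that meet the rule under each scaling, limit or left-out library, split into the 186 members (dark) and other transcripts (light). Counts stay between 178 and 197 when a library is left out and fall to 86 on library totals and 69 on TPM.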

How the data were processed

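The authors trimmed single-end reads of strand-specific libraries and used CLC Genomics Workbench to map them to an assembled transcriptome that included an added *zfs1* sequence. Its version and its handling of multiply mapping reads are not stated in the sources used here. They deposited counts without normalization, RPKM from those counts, lengths and totals, TPM, and a CPM signal that carries an undescribed composition factor of 1.35 to 1.38 in ovary, 0.632 to 0.756 in testis and 1.02 to 1.05 in non-gonadal libraries. This CPM, planned for as plain CPM, was used as deposited for the rule and the filter. The authors' fold changes and p-values were not used.

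Samples were grouped by labelled tissue. The 18416 transcripts that reached 1 CPM in 3 or more libraries were fitted in edgeR 4.0.16 (R 4.3.3, limma 3.58.1) with TMM scaling in 1 model of 9 libraries, and p-values were adjusted over all of them. The SE of a log2 difference is its size over the square root of F. The script was tested on simulated data. Lengths were recovered from deposited counts and RPKM. Reads had no molecular identifiers, so intervals cover counting error only.

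The members and lists were chosen with earlier results of these data known. Members named were the 3 highest in testis CPM, testis TPM and non-gonadal CPM, the 3 largest and 2 smallest in testis over ovary, the 3 with fewest ovary counts, and those next to each limit. Others named are said to be picked later, or are exceptions to a count. Alternatives were other scalings (DESeq2 1.42.0 size factors, library totals, TPM), the DESeq2 Wald test, other filters, fold, level and p limits, medians, subtraction of the testis marker share, fits of 2 tissues, a replicate block, and each library left out.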

Additional observations from a re-analysis of the deposited data

How the results depend on the processing

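On library totals 86 transcripts met the rule (79 of them members), and on TPM 69 did (59 members). A limit of 1.5-fold in both steps gave 482 and of 3-fold gave 58. With library size alone in edgeR, 105 members were called lower in ovary and 75 in both comparisons. For the alternatives given here, the share of all tested transcripts called was not counted. Without the 10 members highest in testis the share of counts was 0.223% in non-gonadal tissue, 0.0951% in ovary and 0.868% in testis. The other scalings, floors and the subtraction of the testis marker share gave 162 to 214 transcripts. Leaving out 1 library gave 178 to 197 transcripts (169 to 184 of them members), 160 to 181 members called lower in ovary, 171 to 184 called higher in testis and 160 to 171 called in both. Of 578 values of the 17 named members under the alternatives, 26 lost their call, 16 gained one and 0 changed direction. Leaving out 1 library ended a call for SMED30008425, SMED30019169 and SMED30035924 in ovary and for SMED30010515 and SMED30014613 in testis, all but SMED30019169 because the value fell under 2-fold. Whether the replicate numbers pair the libraries is not stated in the sources used here. Deviations of same-numbered libraries correlated at 0.00951 to 0.228, which cannot settle it, since differently numbered libraries were not compared. With a replicate block 178 members were called lower in ovary, 176 higher in testis and 172 in both. With 3 libraries against 3, depth limits the ovary level of the 13 members with under 30 ovary counts most.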
